A study of Arabidopsis thaliana with 26 samples.

Results

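The effect of inactivating the exosome core in plants that lack RRP6L2 was examined in 6 of the 26 3′RACE-seq libraries of the series, chosen by genotype. The 2 libraries with inactive Exo9 came from rrp6L2 rrp41 RRP41Pi-Cat- plants, and the 4 with active Exo9 came from rrp6L2 rrp41 RRP41WT and rrp6L2 plants, with 2 libraries each. All 6 share the rrp6L2 T-DNA insertion in the Col-0 ecotype of Arabidopsis, so none of them is a wild type. In rrp6L2 rrp41 RRP41Pi-Cat- plants, the rrp41 null mutant carries a tagged RRP41 transgene with substitutions in the phosphate-binding and catalytic residues, expressed from the RRP41 promoter, whereas rrp6L2 rrp41 RRP41WT plants carry the same kind of transgene without substitutions and rrp6L2 plants keep their endogenous RRP41. RNA was extracted from rosette leaves of pooled 6-week-old plants, with replicates from separate growth periods. How many independent transgenic lines were used is not given in the sources used here.

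The RNA exosome degrades and trims RNA from its 3′ end. In plants, the RRP41 subunit of its core, Exo9, cleaves RNA with phosphate, whereas the core of yeast and animals is inactive and other subunits do the cutting. RRP6L2 is a nucleolar exoribonuclease that acts with the exosome, RRP44 is another, and the helicase MTR4 delivers RNA to the complex. A common target of these factors is the 5′ external transcribed spacer (5′ ETS) of the rRNA precursor, from which endonucleolytic cleavages release the P-P′ fragment that is then degraded. Degradation intermediates can receive short tails, usually of A, which give an exonuclease an unstructured end to start from.

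In 3′RACE-seq, an adapter is ligated to RNA 3′ ends, and the ligated 5′ ETS molecules are amplified and sequenced. For each deduplicated read, the position of the last matching nucleotide was recorded, with any further nucleotides as its tail. A 3′ end is named by the length of the fragment it leaves, with the start of the P-P′ fragment as nucleotide 1, so that P166 is 1 nt longer than P165. The stretch that holds most ends is printed next, with capitals at the last nucleotides of P158, P160, P161, P165, P166, P176, P177 and P186, the ends on which most results turn. It matches the TAIR10.1 assembly on the plus strand at chr2:3283-3343 and chr3:14197254-14197314, both upstream of an 18S rRNA gene and outside annotated genes, and at chr2:7191300-7191360, inside the annotated gene AT2G16586.

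reference 140 to 200: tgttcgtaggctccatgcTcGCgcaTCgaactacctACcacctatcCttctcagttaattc

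The last 20 nt of the fragments that changed most, or that carried most tails, are given with the final nucleotide in capitals.

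end of P161: ttcgtaggctccatgctcgC
end of P165: taggctccatgctcgcgcaT
end of P166: aggctccatgctcgcgcatC
end of P169: ctccatgctcgcgcatcgaA
end of P176: ctcgcgcatcgaactacctA
end of P186: gaactacctaccacctatcC

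The 6 libraries held 60641 of the 224354 reads of the series. The rrp6L2 rrp41 RRP41Pi-Cat- libraries had 6046 and 7225 reads, the rrp6L2 rrp41 RRP41WT libraries 23152 and 7818, and the rrp6L2 libraries 7371 and 9029, with replicate 1 first in each pair here and below. A share supported by 3 reads is 0.0496% and 0.0415% of the libraries with inactive Exo9 and 0.0130% to 0.0407% of those with active Exo9. From P140 to P200 ended 91.5% and 89.7% of the reads with inactive Exo9, against 92.3% to 93.9% with active Exo9. Shares of a library add up to 100%, so the share of an end also depends on that of the others, and the number of fragments per cell was not measured.

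With inactive Exo9, the 3′ ends moved away from P161 and from the P176 and P177 pair, and towards P165, P166 and P186. P166 and P186 were the 2 most frequent ends in both rrp6L2 rrp41 RRP41Pi-Cat- libraries. P177 and P176 led in both rrp6L2 rrp41 RRP41WT libraries, while P161 led in rrp6L2 replicate 1 and P186 in rrp6L2 replicate 2. Of 57 positions with a mean share of at least 0.1%, 22 passed the test (limma on log2(percent + 0.05), Benjamini-Hochberg adjusted p under 0.05), which is 38.6%. Among them 9 were higher (15.8%) and 13 lower (22.8%) with inactive Exo9, and in all 22 the groups did not overlap. Called or not, 36 of the 57 tested positions had groups that did not overlap. Over all 57 positions the median log2 difference was -0.06. Because p-values come from 2 libraries against 4, they measure the spread between these plant pools and libraries.

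**Figure D1:**
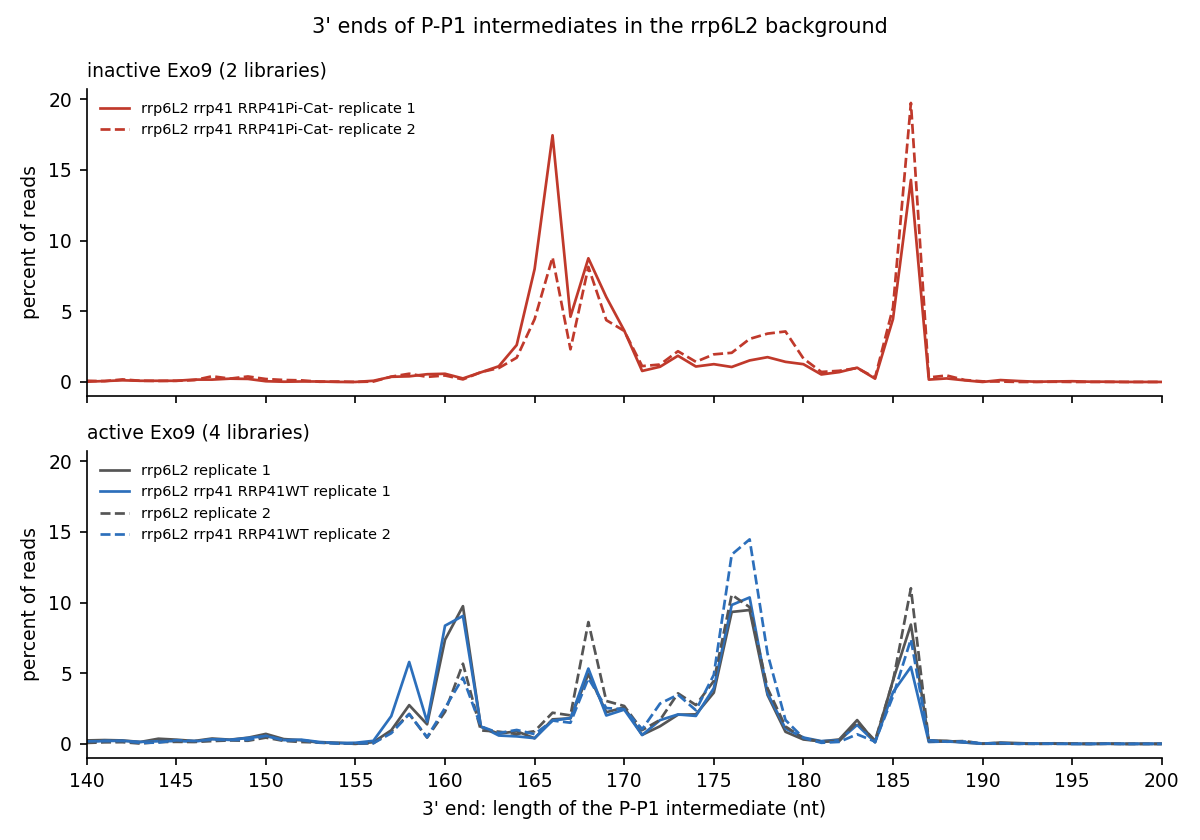
Percentage of all reads of a library (vertical axis) that end at each position from P140 to P200 (horizontal axis, nt of the P-P′ fragment), with the libraries with inactive Exo9 above those with active Exo9. P166 and P186 stand out above, and P161, P176 and P177 below.

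P161 was among the main ends of the plants with active Exo9. It made up 0.248% and 0.180% of the reads in rrp6L2 rrp41 RRP41Pi-Cat-, against 9.05% and 4.68% in rrp6L2 rrp41 RRP41WT and 9.74% and 5.67% in rrp6L2. These low shares rest on 15 and 13 reads, with 95% Wilson intervals of 0.150 to 0.409% and 0.105 to 0.308% that cover counting error only. No library with inactive Exo9 came near the range of the others, and the log2 difference was -4.74 ± 0.37 (SE; limma adjusted p = 4.56e-06). Of the 4 ends just before it, P160, P158 and P157 fell with it and P159 was not called (0.546% and 0.360% with inactive Exo9, against 0.443% to 1.57% with active Exo9; limma adjusted p = 0.181). P160 had 0.579% and 0.457% with inactive Exo9, against 8.36% and 2.55% in rrp6L2 rrp41 RRP41WT and 7.37% and 2.27% in rrp6L2 (log2 difference -2.96 ± 0.53, limma adjusted p = 0.00125). P158 had 0.397% and 0.581%, against 5.79% and 2.11% in rrp6L2 rrp41 RRP41WT and 2.74% and 2.12% in rrp6L2 (-2.48 ± 0.43, limma adjusted p = 0.00112). P157 fell as well, with 0.364% and 0.374% against 0.755% to 1.97% with active Exo9 (-1.41 ± 0.37, limma adjusted p = 0.0113). At P160 and P158 the libraries with active Exo9 differed among themselves, with the highest share in rrp6L2 rrp41 RRP41WT replicate 1. At P160 they divided by replicate number, with the higher shares in replicate 1 of both active genotypes. At both ends all of them lay above both libraries with inactive Exo9.

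P176 had 1.06% and 2.06% of the reads in rrp6L2 rrp41 RRP41Pi-Cat-, against 9.83% and 13.4% in rrp6L2 rrp41 RRP41WT and 9.33% and 10.6% in rrp6L2. The log2 difference was -2.81 ± 0.31 (limma adjusted p = 7.86e-05). P177 showed 1.52% and 3.04%, against 10.4% and 14.5% in rrp6L2 rrp41 RRP41WT and 9.47% and 9.67% in rrp6L2 (-2.30 ± 0.32, limma adjusted p = 0.000254). The decrease reached upstream from this pair to P175, with 1.26% and 1.95% against 3.62% to 4.89% (-1.39 ± 0.30, limma adjusted p = 0.00403). With rrp6L2 rrp41 RRP41WT alone as the comparison, P177 and P175 were not called (limma adjusted p = 0.0520 and 0.0560). P174 had 1.09% and 1.43% against 1.98% to 2.75% (-0.84 ± 0.30, limma adjusted p = 0.0459), and this call was lost under 10 of the 13 alternatives tallied for single ends.

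P166, which ends 5 nt downstream of P161, was the most increased end by share. It took 17.4% and 8.82% of the reads in rrp6L2 rrp41 RRP41Pi-Cat-, against 1.64% and 1.65% in rrp6L2 rrp41 RRP41WT and 1.74% and 2.20% in rrp6L2. The 4 libraries with active Exo9 were alike, while the 2 with inactive Exo9 differed from each other by more than the active ones did, and both lay far above (log2 difference 2.76 ± 0.33, limma adjusted p = 8.86e-05). P165 rose by a larger factor, with 7.99% and 4.44% in rrp6L2 rrp41 RRP41Pi-Cat-, against 0.406% and 0.691% in rrp6L2 rrp41 RRP41WT and 0.393% and 0.897% in rrp6L2 (3.29 ± 0.40, limma adjusted p = 8.86e-05). P164 had 2.61% and 1.72% against 0.531% to 0.985% (1.43 ± 0.34, limma adjusted p = 0.00644). P169 had 6.004% and 4.37% against 2.01% to 3.03% (1.06 ± 0.30, limma adjusted p = 0.0159). Among reads without a tail, P164 and P169 were no longer called (limma adjusted p = 0.197 and 0.211). Of 13 alternatives, 7 ended the call at P169 and 3 that at P164, among them leaving out replicate 1 of rrp6L2 rrp41 RRP41Pi-Cat- (limma adjusted p = 0.153 and 0.0653) and, for P169, leaving out rrp6L2 replicate 1 (limma adjusted p = 0.0510).

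P168 is one of the main ends in all these plants and was not called. It had 8.75% and 8.14% in rrp6L2 rrp41 RRP41Pi-Cat-, against 5.33% and 4.64% in rrp6L2 rrp41 RRP41WT and 4.94% and 8.62% in rrp6L2, a log2 difference of 0.56 ± 0.29 (limma adjusted p = 0.148). The groups overlapped through rrp6L2 replicate 2, and without that library P168 was called (0.76, limma adjusted p = 0.0138).

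P186 had 14.3% and 19.7% in rrp6L2 rrp41 RRP41Pi-Cat-, against 5.44% and 7.41% in rrp6L2 rrp41 RRP41WT and 8.44% and 11.01% in rrp6L2. All 4 active libraries lay below the 2 inactive ones, and the log2 difference was 1.10 ± 0.29 (limma adjusted p = 0.0124). The call was lost without replicate 2 of rrp6L2 rrp41 RRP41Pi-Cat- (limma adjusted p = 0.0594) and when either active genotype served alone as the comparison. Between P177 and P186, 3 small ends rose together. P180 had 1.26% and 1.66% against 0.312% to 0.449% (1.75 ± 0.27, limma adjusted p = 0.000462), and P182 had 0.695% and 0.789% against 0.141% to 0.312% (1.56 ± 0.29, limma adjusted p = 0.00146). P181, named after its values were seen, had 0.529% and 0.706% against 0.0767% to 0.194% (1.78 ± 0.32, limma adjusted p = 0.00125).

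Among the ends before P164, only P132 was called higher, with 1.59% and 1.40% against 0.388% to 0.898% (1.33 ± 0.33, limma adjusted p = 0.00925). The remaining 5 calls, at P141, P145, P150, P151 and P152, were decreases at ends with mean shares of 0.196% to 0.568% in the libraries with active Exo9. These ends are taken up again with a base variant of the reads.

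**Figure D2:**
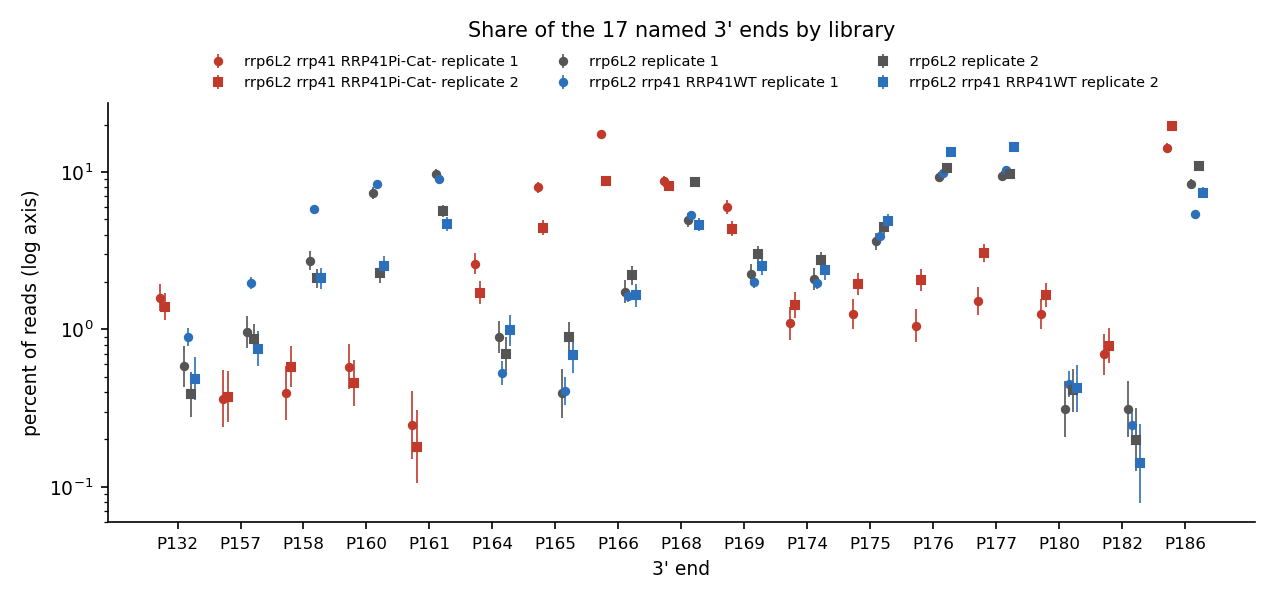
Share of each named 3′ end (percent of all reads of a library, log scale) with one point per library and bars for its 95% Wilson interval, inactive Exo9 left of active Exo9. P161, P176 and P177 are lower and P165, P166 and P186 higher with inactive Exo9, with no overlap between the groups, while P168 overlaps.

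The ends were also summed over 11 regions that hold every read. The region from P163 to P167 held 33.8% and 18.3% of the reads with inactive Exo9, against 4.99% to 6.68% with active Exo9. Positions P168 to P170 held 18.4% and 16.1% against 9.63% to 14.3%, and positions P185 to P187 held 18.9% and 25.3% against 9.23% to 15.7%. The differences in mean share were 20.3, 6.39 and 9.84 percentage points. Lower shares were found at P176 to P177, with 2.58% and 5.11% against 18.8% to 27.9%, at P161 to P162, with 0.926% and 0.872% against 5.92% to 10.9%, and at P157 to P160, with 1.89% and 1.77% against 5.70% to 17.7%. There the differences were -17.9, -7.55 and -8.60 percentage points. Positions P171 to P175 had 6.05% and 7.90% against 9.66% to 14.6%, positions P140 to P156 had 1.44% and 2.23% against 2.37% to 4.46%, and positions P22 to P139 had 6.53% and 7.02% against 3.75% to 5.32%. The groups overlapped only at P178 to P184 and at P188 to P482, which held 9.16% ± 3.21 and 3.29% ± 0.951 (SD, n = 2) with inactive Exo9 and 7.80% ± 1.23 and 2.72% ± 0.753 (SD, n = 4) with active Exo9. An exact permutation test of 2 libraries against 4 has 15 relabelings and a smallest p of 0.0667, so no single value can pass 0.05. That smallest p was reached at 6 of the 11 regions (two-sided; Benjamini-Hochberg adjusted p = 0.122).

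Whole profiles differed by a total variation distance of 44.1%, the share of reads that would have to move to turn one mean profile into the other (two-sided exact permutation test, p = 0.0667, the smallest possible). Between single libraries, the 8 pairs of an inactive with an active library were 34.6% to 52.9% apart. The 3 replicate pairs of a genotype were 16.9% to 21.6% apart, and the 4 pairs of rrp6L2 rrp41 RRP41WT with rrp6L2 were 9.79% to 20.6% apart. Libraries with the active transgene were no farther from those of rrp6L2 than replicates were from each other. The groups overlapped in the median end, which was P168 and P173 with inactive Exo9 against P170 to P176 with active Exo9.

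Tails were recorded under rules that bear on these positions. An added nucleotide equal to the next reference base cannot be told from the reference, and the second nucleotide of a tail never equals the second next base in the deposited reads. Tails of A with at least 2 nt could therefore be recorded at 37 of the 61 positions from P140 to P200, including P158, P160, P161, P165, P169, P176 and P186 but not P166, P168 or P177. An A added to P163, P168, P175 or P178 appears as P164, P169, P176 or P179, so that tails assigned to these 4 ends may have begun at shorter fragments. Tails at P165 have no such neighbour, since their fragment ends in a T. Tails of at least 1 nt include single nucleotides, and the paper could not exclude that some of these are sequence polymorphisms.

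With inactive Exo9, tails of at least 2 nt sat at P165, P169 and P164 in place of P160, P161, P158 and P176. These libraries held 744 and 479 such tails, against 3332 and 633 in rrp6L2 rrp41 RRP41WT and 756 and 497 in rrp6L2. P165 carried 34.1% and 16.3% of the tails in rrp6L2 rrp41 RRP41Pi-Cat-, against 0.3001% and 0.158% in rrp6L2 rrp41 RRP41WT and 0.265% and 0.805% in rrp6L2. The log2 difference on the log2(percent + 0.2) scale was 5.47 ± 0.55 (limma adjusted p = 1.44e-06). P169 carried 22.3% and 13.2% against 3.66% to 6.32% (1.94 ± 0.44, limma adjusted p = 0.00165). It was not called with rrp6L2 rrp41 RRP41WT alone as the comparison (1.79, limma adjusted p = 0.115). P164 carried 9.41% and 9.19% against 0.402% to 0.794% (3.59 ± 0.48, limma adjusted p = 1.59e-05). P179 carried 2.42% and 8.56% against 1.26% to 2.01% (1.45 ± 0.54, limma adjusted p = 0.0326), and P180 carried 2.42% and 5.01% against 0.600% to 2.82%, with overlap (1.69 ± 0.61, limma adjusted p = 0.0291). Without replicate 2 of rrp6L2 rrp41 RRP41Pi-Cat-, the log2 differences were 0.58 at P179 and 1.19 at P180 and neither was called (limma adjusted p = 0.450 and 0.145). Both calls were also lost without rrp6L2 rrp41 RRP41WT replicate 1 (limma adjusted p = 0.0611 for both) and with rrp6L2 alone as the comparison, and P180 without rrp6L2 rrp41 RRP41WT replicate 2 (limma adjusted p = 0.0623).

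The largest decrease in percentage was at P160, with 2.02% and 1.25% of the tails in rrp6L2 rrp41 RRP41Pi-Cat-, against 25.5% and 9.95% in rrp6L2 rrp41 RRP41WT and 23.8% and 12.7% in rrp6L2 (-3.23 ± 0.48, limma adjusted p = 3.00e-05). P161 carried 0.672% and 0.626% against 8.21% to 15.1% (-3.78 ± 0.45, limma adjusted p = 6.27e-06). P158 carried 1.75% and 1.25% against 7.43% to 14.7% (-2.62 ± 0.44, limma adjusted p = 0.00012), and P176 3.49% and 7.10% against 11.3% to 19.6% (-1.62 ± 0.42, limma adjusted p = 0.00393). Few tails were recorded at P177, with 0% and 0.626% against 1.20% to 3.42% (-2.58 ± 0.61, limma adjusted p = 0.00221). Tails of A with at least 2 nt cannot be recorded there, and the shares with inactive Exo9 rest on 0 and 3 tails. With rrp6L2 rrp41 RRP41WT alone as the comparison, P176 was not called (-1.54, limma adjusted p = 0.158). Without replicate 1 of rrp6L2 rrp41 RRP41Pi-Cat-, the log2 differences were -1.13 at P176 and -1.56 at P177. Of 24 positions tested, 14 were called (58.3%), 7 in each direction (29.2%), and the median log2 difference was -0.45.

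**Figure D3:**
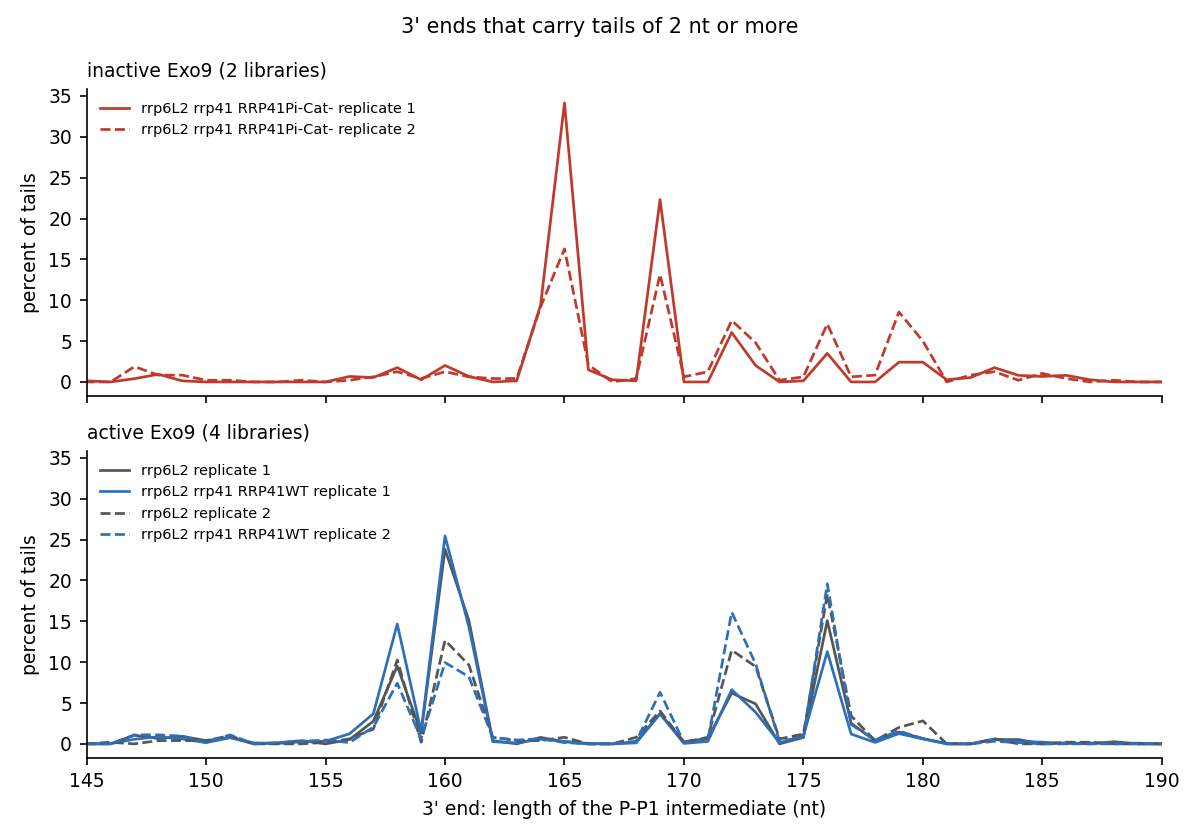
Percentage of the tails of at least 2 nt of a library (vertical axis) that sit at each 3′ end around the main ones (horizontal axis, nt), with inactive Exo9 above active Exo9. Tails gather at P165 and P169 with inactive Exo9 and at P158 to P161 and P176 with active Exo9.

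The frequency of tailing at a given end was compared apart from how frequent that end is. At P165, 54.5% and 31.8% of the reads had a tail of at least 1 nt in rrp6L2 rrp41 RRP41Pi-Cat- (263 of 483 and 102 of 321 reads), against 14.9% and 9.26% in rrp6L2 rrp41 RRP41WT and 6.90% and 7.41% in rrp6L2. The log2 odds differed by 2.74 ± 0.56 (limma adjusted p = 0.0114). At P164 the tailed share was 49.4% and 39.5%, against 19.5% and 5.19% in rrp6L2 rrp41 RRP41WT and 13.6% and 9.52% in rrp6L2 (2.63 ± 0.59, limma adjusted p = 0.0134). These were the only calls among 37 positions (5.41%, both higher, with 0% lower and 6 positions at an unadjusted p under 0.05). Without replicate 1 of rrp6L2 rrp41 RRP41Pi-Cat-, neither was called, with log2 differences of 2.06 at P165 and 2.34 at P164 (limma adjusted p = 0.309 for both). P164 was also not called without replicate 2 (2.91, limma adjusted p = 0.0778).

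No other end was called. P176 was tailed in 53.1% and 31.5% of its reads with inactive Exo9 against 22.9% to 40.0% with active Exo9. P177 had a tail in 37.0% and 47.3% against 43.8% to 47.0%. These were mostly of 1 nt, at an end where tails of A with at least 2 nt cannot be recorded. P186 was abundant with inactive Exo9 and yet had tails in only 0.926% and 0.421% of its reads, against 0.101% to 0.965%, although tails of A can be recorded there. P166 had tails in 3.79% and 3.77% of its reads, against 0% to 2.33%, at an end where tails of A with at least 2 nt cannot be recorded. P168 had tails in 0.756% and 0.850% against 1.03% to 1.92%, and P185 in 3.72% and 3.95% against 1.25% to 2.84%. The groups did not overlap at these 3 ends, though none of them was called. The same held at P136, P150, P163, P178, P182 and P183. Of these, P183 came nearest to a call, with tails in 21.3% and 11.3% against 2.13% to 7.40% (2.13 ± 0.62, limma adjusted p = 0.0538).

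Over all ends, the share of reads with a tail of at least 2 nt was 12.3% and 6.63% with inactive Exo9, against 14.4% and 8.10% in rrp6L2 rrp41 RRP41WT and 10.3% and 5.50% in rrp6L2. The groups overlapped and the means differed by -0.0947 percentage points, less than the spread of replicates (two-sided exact permutation test, p = 1). In all 3 genotypes replicate 1 had the larger share. Single added nucleotides were less frequent with inactive Exo9, in 4.32% and 6.09% of the reads against 12.9% and 14.01% in rrp6L2 rrp41 RRP41WT and 11.9% and 9.66% in rrp6L2 (two-sided exact permutation test, p = 0.0667, the smallest possible). The groups did not overlap. Of these single nucleotides, 13.03% and 23.0% sat at P177 with inactive Exo9 against 34.9% to 47.1%, and at P176 3.07% and 2.95% against 14.6% to 18.4%. Some of them may be sequence polymorphisms and not additions, a limit the paper gives, and this was not tested. At P177, longer tails of A cannot be recorded. Reads with a tail of any length made up 16.6% and 12.7% against 15.2% to 27.3% (two-sided exact permutation test, p = 0.267).

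The groups overlapped in tail length. The mean length of tails of at least 2 nt was 9.03 and 7.14 nt in rrp6L2 rrp41 RRP41Pi-Cat-, against 8.25 and 6.35 nt in rrp6L2 rrp41 RRP41WT and 7.42 and 5.33 nt in rrp6L2 (two-sided exact permutation test, p = 0.4). The median was 8 and 5 nt against 4 to 6 nt (exact permutation p = 0.267). Among libraries of the same replicate number, the mean and the median were largest in rrp6L2 rrp41 RRP41Pi-Cat-. Replicate numbers did not pair all genotypes, and an exact permutation test within replicates cannot go below p = 0.111. Tails of 6 to 9 nt made up 27.7% and 22.8% against 15.01% to 22.7%, close to overlap (exact permutation p = 0.133), and the classes of 2 to 5, 10 to 14 and 15 to 30 nt overlapped. At P165 the medians were 9 and 5 nt with inactive Exo9 (254 and 78 tails). At P160 the library medians were 8 and 6 nt with inactive Exo9 (15 and 6 tails), against 6 to 9 nt with active Exo9 (63 to 848 tails). Tails at P176 were shorter in both groups, with library medians of 4.5 nt with inactive Exo9 (26 and 34 tails), against 2 to 3 nt with active Exo9 (91 to 376 tails). At P169 the medians were 8 and 6 nt with inactive Exo9, against 5.5 to 6.5 nt with active Exo9.

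Tails were made mostly of A in every library. A made up 94.7% and 89.9% of the tail nucleotides with inactive Exo9, against 92.2% and 88.8% in rrp6L2 rrp41 RRP41WT and 90.6% and 83.4% in rrp6L2 (two-sided exact permutation test, p = 0.4). Among libraries of the same replicate number, the A content was highest in rrp6L2 rrp41 RRP41Pi-Cat-, an order with the same limit as that of tail length. T made up 1.79% and 3.62% against 2.96% to 7.17%, G 3.08% and 4.94% against 3.88% to 5.81%, and C 0.476% and 1.58% against 0.9498% to 3.66%, all with overlap. Tails of A alone were 66.4% and 54.1% of the tails against 48.3% to 58.1% (exact permutation p = 0.333). At P165, 95.1% of the nucleotides were A and 65.4% of the tails A only. The 4 most frequent tails had 2 to 5 A in both groups, led by AA with 9.30% of the tails with inactive Exo9 against 13.8% with active Exo9. The fifth was a tail of 9 A with 4.60% with inactive Exo9, against a tail of 6 A with 3.58% with active Exo9.

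Single added nucleotides, some of which may be sequence polymorphisms, differed in base. A made up 84.7% and 80.7% of them in rrp6L2 rrp41 RRP41Pi-Cat-, against 72.7% and 78.3% in rrp6L2 rrp41 RRP41WT and 66.5% and 75.3% in rrp6L2 (two-sided exact permutation test, p = 0.133). G made up 4.98% and 5.91% against 9.04% to 13.5%, T 6.13% and 9.55% against 11.7% to 17.6%, and C 4.21% and 3.86% against 1.00% to 2.51%, each without overlap (exact permutation p = 0.0667, the smallest possible). Which base can be recorded depends on the end, and the ends at which single nucleotides sat changed as described. At ends where tails of A with at least 2 nt can be recorded, the differences were 16.97 percentage points for A, -9.31 for T, -7.60 for G and -0.0710 for C. Those for A, T and G were larger in size than over all ends. This set leaves out P177, where a single A can be recorded. That end held 34.9% to 47.1% of the single nucleotides with active Exo9.

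**Figure D4:**
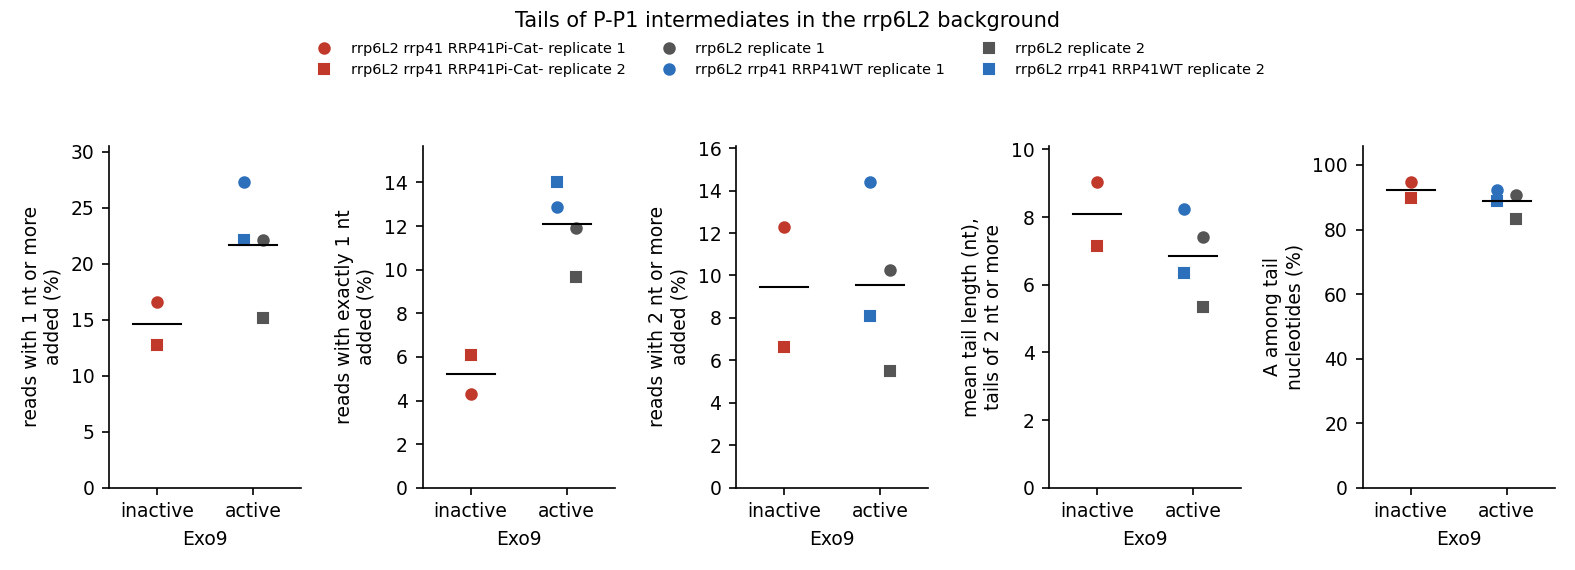
Tailing measures per library, inactive Exo9 left of active Exo9, each panel with its own unit on the vertical axis and a line at the mean. The points overlap for tails of at least 2 nt, mean length and A content, and do not overlap for single added nucleotides, at 4.32% and 6.09% against 9.66% to 14.01% of the reads.

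One base of the recorded sequence differed from the reference in at least 5% of the reads, T137C, in which the reference base, counted along the fragment, comes first and the base of the read last. It is a change that the matching copies in the assembly do not carry. Its share moved with the groups. Of the reads ending from P157 to P200, 76.6% and 70.9% carried C in rrp6L2 rrp41 RRP41Pi-Cat-, against 43.1% and 34.4% in rrp6L2 rrp41 RRP41WT and 34.4% and 40.6% in rrp6L2 (two-sided exact permutation test, p = 0.0667, the smallest possible). Because the last 20 nt of each read match the reference, reads with C cannot be recorded at ends before P157.

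The profiles were therefore compared within reads of either base, as shares of the reads of that kind that end from P140 to P200. At P166, reads with the reference base gave 19.1% and 9.16% with inactive Exo9 against 1.627% to 2.35%, and reads with C gave 19.2% and 10.2% against 1.69% to 2.41%. At P161, reads with the reference base gave 0.221% and 0.0503% against 5.22% to 9.49%, and reads with C gave 0.289% and 0.269% against 4.54% to 12.9%. P165, P176, P177 and P186 kept their direction and their call within reads of either base. Of the calls that could be tested again, 15 of 21 were called with the same sign within reads of the reference base and 14 of 16 within reads with C. The 5 decreases from P141 to P152 were not called among reads with the reference base, where their log2 differences were still negative, from -0.13 to -1.11 (limma adjusted p from 0.0663 to 0.749), and the difference in the region from P140 to P156 was 1.29 percentage points there.

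**Figure D5:**
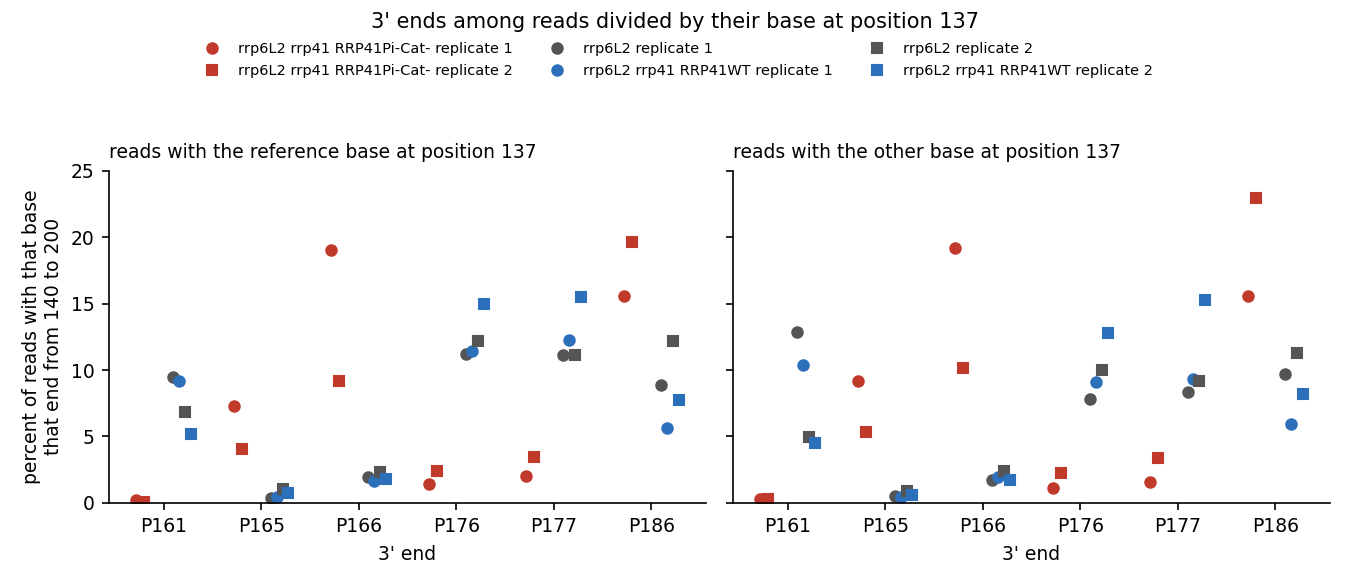
Share of 6 ends (horizontal axis) among reads with the reference base, left panel, and reads with T137C, right panel, as percent of the reads of that kind that end from P140 to P200, one point per library, inactive Exo9 left of active Exo9. P166 reaches 19.1% and 9.16% on the left and 19.2% and 10.2% on the right with inactive Exo9, and the groups do not overlap at any of the 6 ends in either panel.

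The same inactivation was made in Col-0, RRP44KD rrp6L2 and mtr4, which allows a comparison of the changes between backgrounds. RRP44KD rrp6L2 plants lack RRP6L2 as well. The contrast with all 3 backgrounds therefore cannot tell what is particular to the loss of RRP6L2. The comparisons of 3′ ends use RRP41Pi-Cat- libraries in every background. With the same fit over the same 57 positions, 13 positions were called in Col-0 (22.8%), 15 in RRP44KD rrp6L2 (26.3%) and 20 in mtr4 (35.1%). Of the 22 calls in rrp6L2, 9 were also called with the same sign in Col-0, 12 in RRP44KD rrp6L2 and 16 in mtr4, which is 69.2%, 80% and 80% of the calls there and 40.9%, 54.5% and 72.7% of those in rrp6L2. None was called with the opposite sign. The calls shared with RRP44KD rrp6L2 and with mtr4 include P150, P151 and P152, ends at which reads with T137C cannot be recorded. In rrp6L2 these ends were not called among reads with the reference base (limma adjusted p from 0.0663 to 0.312). The difference of the change in rrp6L2 from the mean change in the other 3 backgrounds was called at 0 of 57 positions (0%; limma, lowest adjusted p = 0.451), with 3 positions at an unadjusted p under 0.05. Named for that, the log2 difference of the changes was 1.38 ± 0.54 at P165, 1.22 ± 0.46 at P180 and -1.28 ± 0.60 at P161.

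P166 changed by 2.76 (log2) in rrp6L2, against 2.43 in Col-0, 2.05 in RRP44KD rrp6L2 and 2.38 in mtr4. P161 changed by -4.74 in rrp6L2, against -5.45, -2.51 and -2.42 in the same order of backgrounds, and P176 by -2.81 against -4.01, -1.27 and -3.70. P165 changed by 3.29 against 1.84, 2.07 and 1.82, and P186 by 1.10 against 0.66, 1.52 and 1.57. P180 changed by 1.75 in rrp6L2, against -0.44 in Col-0, 0.95 in RRP44KD rrp6L2 and 1.07 in mtr4. P179 changed by 0.91 in rrp6L2, where it was not called, against -1.71 in Col-0, 0.95 in RRP44KD rrp6L2 and 0.57 in mtr4. In Col-0 its decrease was called (limma adjusted p = 0.00195). When Col-0 alone was the comparison, the changes at P179 and P180 differed, by 2.62 ± 0.59 and 2.19 ± 0.56 (limma adjusted p = 0.00601 and 0.0136). For 20 measures of tail frequency, length and composition, the change in rrp6L2 was not separated from that of the 8 libraries with inactive Exo9 of the other backgrounds, 2 of which carry RRP41Pi-, with the phosphate-binding site alone changed, in place of RRP41Pi-Cat- (two-sided exact permutation tests with 45 relabelings, Benjamini-Hochberg adjusted p of at least 0.889).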

How the data were processed

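The authors deposited one table with a row per deduplicated read, holding the sequence that matches the 5′ ETS, the position of its 3′ end and the added nucleotides. These columns hold text and positions, a unit of another kind than counts, and no normalization was applied by the authors. Per the study's methods, reads were mapped to the rRNA sequence, and unmatched reads were trimmed from the 3′ end by up to 30 nt to find tails. Library, end and tail were taken from the deposited columns, and reads per end were counted here.

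Shares are percentages of all reads of a library. Positions were tested with limma 3.58.1 (lmFit and eBayes with trend, R 4.3.3) on log2(percent + 0.05), log2(percent + 0.2) for tails, or log2 odds with 0.5 added to both read numbers, for positions with a mean share of at least 0.1%, 0.5% of tails or 30 reads. Fold changes of rare ends are understated by the added value. Single values were compared by exact permutation. The scans were run on simulated data with a spread that was set and not taken from these libraries. That run does not measure their error rate here. Named ends are P161, P168, P176 and P186, the 8 called ends with the largest increase and the 8 with the largest decrease in mean percentage, and in the tail scans the 5 in each direction. The members and lists were chosen with earlier results of these data known. Alternatives were other denominators, pseudocounts and filters, 1 active genotype as comparison, ends within 1 nt, reads with and without T137C, all 26 libraries in a fit, the replicate number as block, and leaving out each library.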

Additional observations from a re-analysis of the deposited data

Results flagged for a closer look

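Among the 4 libraries with active Exo9, 3 of the 48 values checked had 1 library far from the other 3, and chance flags about 1 in 20 such groups. Positions P168 to P170 held 14.3% of the reads in rrp6L2 replicate 2, against 9.63% to 9.76% in the other 3. Positions P176 to P177 held 27.9% in rrp6L2 rrp41 RRP41WT replicate 2, against 18.8% to 20.2%. P166 had 2.20% in rrp6L2 replicate 2, against 1.64% to 1.74%. Each of these values lay on the same side of the libraries with inactive Exo9 as the rest of its group.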

How the results depend on the processing

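P161, P165, P166, P176 and P180 kept their direction and call under the 13 alternatives that were tallied for single ends. Other settings of the scan, such as pseudocounts, filters and the fit over all 26 libraries, were compared only by the number of positions called. The number of positions called was 5 of 57 with rrp6L2 rrp41 RRP41WT alone as the comparison (23 at an unadjusted p under 0.05), 14 of the 33 testable among reads with T137C, and 17 to 24 when 1 library was left out. Calls lost with rrp6L2 rrp41 RRP41WT alone included P132, P157, P158, P160, P175, P177 and P182 (limma adjusted p from 0.0516 to 0.116). P182 was also not called for ends within 1 nt (limma adjusted p = 0.189). With rrp6L2 alone as the comparison, 4 ends were called in tailing frequency and 9 in tail position. Leaving out 1 library gave 0 to 3 calls in tailing frequency, with 0 without rrp6L2 rrp41 RRP41Pi-Cat- replicate 1 (3 at an unadjusted p under 0.05) and 1 without its replicate 2, and 11 to 16 in tail position. With Col-0 alone as the other background, 2 positions differed. The share of reads with tails of at least 2 nt changed sign, to 1.59 percentage points with rrp6L2 alone as the comparison, 0.00747 for ends from P140 to P200, 0.535 among reads with the reference base and 2.07 at ends where tails of A can be recorded, an alternative chosen after seeing the data, and ranged from -2.93 to 2.74 when 1 library was left out. The difference in tails of A alone ranged from -0.258 to 12.1, that in tails of A with other bases from -10.2 to 1.54, with 5.12 for tails of at least 1 nt, and that in G from -1.65 to 0.204. Single added C came to -0.0710 at ends where tails of A with at least 2 nt can be recorded. Positions P140 to P156 came to 1.29 among reads with the reference base, positions P178 to P184 to -0.211 among reads without a tail and to between -0.899 and 3.64 without 1 library, and positions P188 to P482 to between -0.104 and 1.24. The causes were not tested. Replicate numbers did not pair all genotypes, since the correlation of their deviations was 0.00829 between rrp6L2 rrp41 RRP41Pi-Cat- and rrp6L2, 0.336 between rrp6L2 rrp41 RRP41Pi-Cat- and rrp6L2 rrp41 RRP41WT and 0.617 between rrp6L2 rrp41 RRP41WT and rrp6L2. With the replicate number as a block, 28 positions were called, 3 in tailing frequency, 15 in tail position and 0 between backgrounds, and the smallest p of an exact test was 0.111. Depth limits the rare ends, such as P161 with inactive Exo9, and 2 libraries against 4 limit every single value.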
